A study of Mus musculus with 2 samples.

Results

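Committed preadipocytes poor in Pi16 and Fbn1 were taken from single-nucleus RNA sequencing of mouse visceral fat, as fibro-adipogenic progenitor (FAP) nuclei with few progenitor transcripts or with more committed than progenitor transcripts. Nuclei had over 500 genes, over 1000 UMIs (counted transcripts) and under 15% mitochondrial UMIs. A FAP nucleus held at least 6 UMIs summed over 7 stromal genes (Col1a1, Col1a2, Col3a1, Lama2, Bicc1, Abca8a, Nova1), under 10 over 8 adipocyte genes (Plin1, Cidec, Pde3b, Acsl1, Dgat2, Pnpla2, Adrb3, Aqp7) and at most 1 over Upk3b, Msln, Ptprb and Cybb. P was the UMI sum of the 5 progenitor genes Pi16, Dpp4, Fbn1, Sema3c and Cd55, and C that of the 3 committed genes Col15a1, Cxcl14 and Hsd11b1. Members, called committed nuclei from here, had P of at most 1, or C of at least 2 and not under P. There were 402 of 15058 filtered nuclei, 40 of 2833 in replicate 1 and 362 of 12225 in replicate 2, among 1322 FAP nuclei.

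Fat tissue keeps a pool of stromal progenitors that can turn into new adipocytes. Progenitors marked by Pi16 and Dpp4 lie in connective tissue around the lobules, and they give rise to committed preadipocytes, which sit nearer to adipocytes and vessels and carry more of the adipogenic programme, including the nuclear receptor Pparg. Visceral depots are also wrapped in mesothelium, whose cells share several transcripts with the progenitors.

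The study profiled subcutaneous and visceral fat of young and aged mice, and only the young visceral libraries were used here. Both came from gonadal fat of untreated female C57BL/6J mice aged 2 months, with 1 library per mouse and no other treatment or genotype. Replicate 1 had 7344 called nuclei and replicate 2 had 17148, and the filtered nuclei held 8466237 and 48068273 UMIs. The libraries stood apart in quality: the median mitochondrial share of filtered nuclei was 6.20% in replicate 1 and 0.621% in replicate 2. Descriptions of the samples give a 10x capture of adipocytes, whereas the paper states a Singleron kit. The nuclei held stromal, mesothelial, endothelial, immune and mural types beside adipocytes. The libraries shared 85 barcodes among called nuclei, and 0 of the committed nuclei carried a shared barcode.

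Committed nuclei were shallow. Their median was 1588.5 UMIs in replicate 1 and 1849.5 in replicate 2, against 2071 and 2286 in the other FAP nuclei and 3032 and 5235 in adipocyte nuclei. The median mitochondrial share was 4.70% and 0.708% in committed nuclei and 5.65% and 0.977% in other FAP nuclei. Summed over nuclei, committed nuclei gave 76737 UMIs in replicate 1 and 744093 in replicate 2, and levels are given as CPM of these sums. A lower depth alone makes a P of at most 1 more frequent, and the part of depth in the choice of members was not tested on its own. Shares by the whole rule on nuclei thinned to 1000 UMIs are given further on.

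The values that chose the members are a description, with no test. The median P was 1 in replicate 1 and 0 in replicate 2, against 16 and 8 in other FAP nuclei, and the median C was 1 and 1 against 0 and 0. By the P condition alone came 24 of 40 members in replicate 1 (60%, 95% Clopper-Pearson interval 43.3% to 75.1%) and 246 of 362 in replicate 2 (68.0%, 62.9% to 72.7%). Both conditions were met by 11 and 82 members, and the C condition alone by 5 and 34. No committed-gene UMI at all was seen in 15 of 40 members (37.5%) and 156 of 362 (43.1%), so that these nuclei were members through low progenitor counts and not through any committed transcript. At the threshold in replicate 2, 142 FAP nuclei had a P of 1 and all were members, with a median of 1819 UMIs, while 108 had a P of 2 with a median of 1940.5 UMIs and 23 of these were members through C. Just inside stood 66 nuclei with P of 1 and C of 0, and just outside stood 64 nuclei with P of 2 and C of 0. In replicate 1 the same pair was 6 nuclei inside and 4 outside. The grid of nuclei by P and C has no gap between members and the rest.

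**Figure D1:**
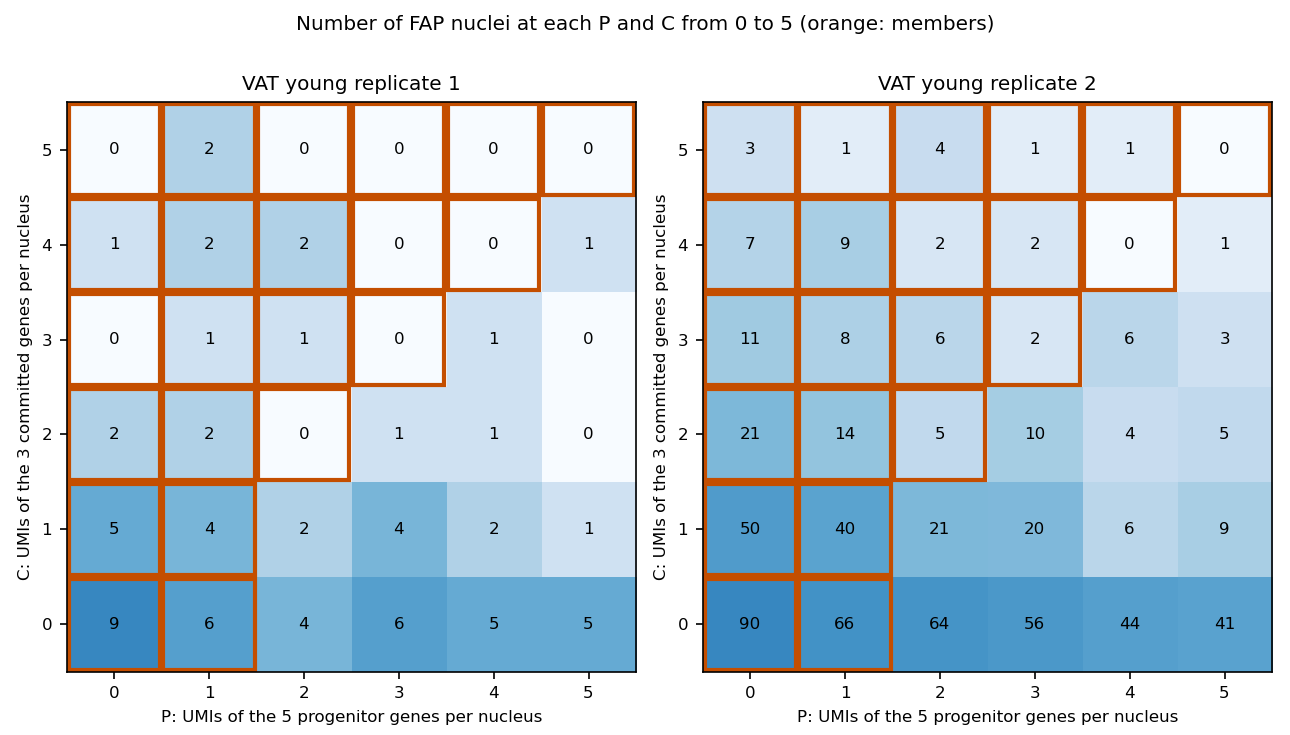
Number of FAP nuclei at each P (horizontal axis, UMIs of 5 progenitor genes) and C (vertical axis, UMIs of 3 committed genes) from 0 to 5, by library, with members framed in orange. In replicate 2 the cell at P of 0 and C of 0 holds 90 nuclei. From P of 1 to P of 2, across the edge of the rule, counts there go from 66 to 64 at C of 0 and from 40 to 21 at C of 1.

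After thinning all nuclei to 1000 UMIs, Col15a1, a collagen of basement membrane zones, was seen in 40% of committed nuclei of replicate 1 and 31.8% in replicate 2, and in 9.22% and 8.86% of other FAP nuclei. In adipocyte nuclei of the same thinned depth it was seen in 39.4% and 25.6%, and in mesothelial nuclei in 2.92% and 4.65%. Cxcl14, a chemokine, was seen in 7.50% and 3.59% of committed nuclei, in 0% and 0.385% of other FAP nuclei and in 0% and 0.0728% of adipocyte nuclei. Hsd11b1, the enzyme that regenerates active glucocorticoid, was seen in 12.5% and 11.9% of committed nuclei, in 4.26% and 2.95% of other FAP nuclei and in 5.33% and 3.55% of adipocyte nuclei. On the progenitor side, Pi16 was seen in 5% and 2.76% of committed nuclei, 68.1% and 35.4% of other FAP nuclei and 5.07% and 1.51% of adipocyte nuclei. Fbn1, which encodes the microfibril protein fibrillin, was seen in 15% and 13.3% of committed nuclei, 64.5% and 44.2% of other FAP nuclei and 2.40% and 1.47% of adipocyte nuclei. The rule used all 5 of these genes, so nothing is read from how their shares compare between groups.

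Members were also described by genes outside the rule. Committed nuclei carried the FAP receptor gene Pdgfra in 50% and 34.8% of thinned nuclei, against 0.975% and 0.528% of adipocyte nuclei. Members had to hold UMIs of stromal genes and adipocyte nuclei were limited in the same genes. Nothing is therefore read from this difference for the label, and Pdgfra was not called between committed and other FAP nuclei. Grouped by their own transcripts, committed nuclei fell into 3 sub-clusters. Leading genes of these were named after their values were seen. They get no test, because the same counts formed the sub-clusters. The first held 33 nuclei of replicate 1 (82.5%) and 277 of replicate 2 (76.5%) and was led by Gask1b, Fap, Thsd7a, Inmt, Ifi205 and Mmp2. The second held 5 and 80 nuclei (12.5% and 22.1%), of which 4 and 71 came in by low P alone, and was led by Podxl, Upk1b, Pkhd1l1 and Lrp2, genes of mesothelium and other epithelia. These leading genes are those of replicate 2 for the most part: in the 5 nuclei of replicate 1 Upk1b and Lrp2 stood at 0 CPM, Pkhd1l1 at 121 CPM and Podxl at 606 CPM, against 308, 176, 373 and 308 CPM in replicate 2. Its median mitochondrial share was 7.52% and 1.42%. The third held only 2 and 5 nuclei and was led by Rgs5, Kcnq5, Lin7a and Abcc9, of which Rgs5 and Abcc9 mark mural cells of vessels. The mucin gene Muc16 stood at 13.4 CPM in the first sub-cluster of replicate 2 and 176 in the second, while Pdgfra stood at 575 and 132 CPM. Mural transcripts were not held by the third sub-cluster alone. Of the 27 committed nuclei of replicate 2 with over 1 mural gate UMI, 17 lay in the first sub-cluster, which held Myh11, a gene of smooth muscle, at 173 CPM there and 15.7 CPM in replicate 1. Most members lay in the first sub-cluster, and these values do not show that they were committed, since many members had no committed-gene UMI.

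**Figure D2:**
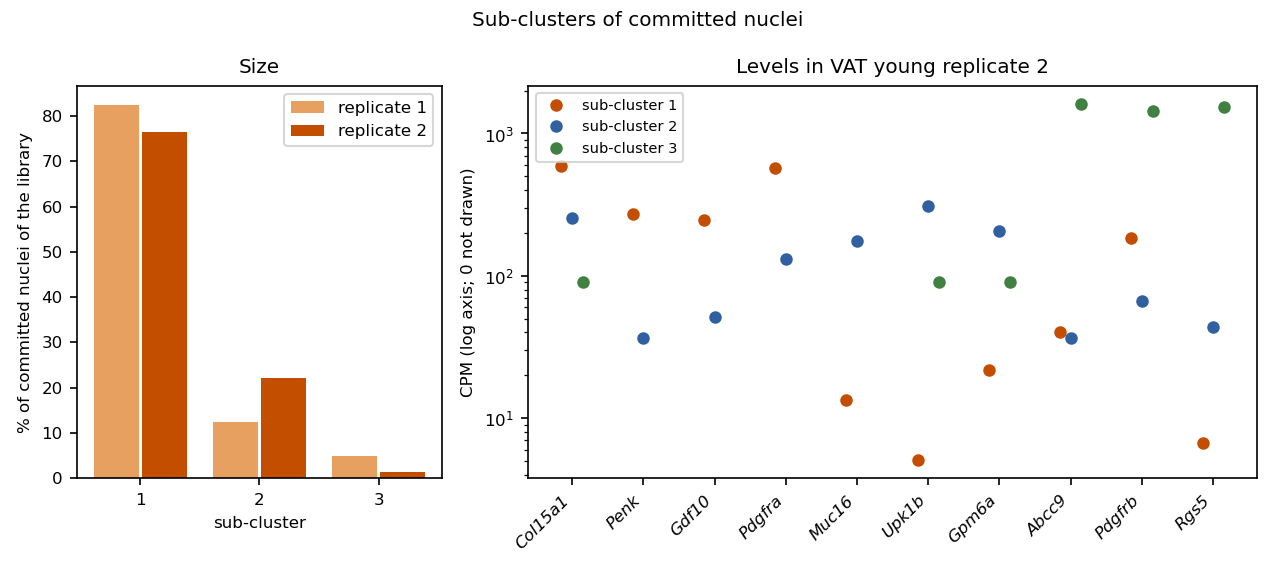
Left, percent of the committed nuclei of each library in each of 3 sub-clusters. Right, CPM (log axis) of 10 genes in each sub-cluster of replicate 2, where Pdgfra stands at 575 CPM in the first and 132 in the second and Muc16 at 13.4 and 176.

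Markers of other cell types were summed over whole lists in every library. The 15 adipocyte genes summed to 10999 and 8268 CPM in committed nuclei of replicates 1 and 2, 9130.3 and 6395 in other FAP nuclei and 68849 and 60321 in adipocyte nuclei, with all 15 seen in committed nuclei, Scd1 the most abundant in replicate 1 and Ghr in replicate 2. The 12 mesothelial genes summed to 391 and 695 CPM in committed nuclei of replicates 1 and 2, 945 and 1832 in other FAP nuclei and 5125 and 5207 in mesothelial nuclei, with Wt1 the most abundant in replicate 1, Efna5 in replicate 2 and Krt18 at 0. The 12 mural genes summed to 1798 and 1787 CPM in committed nuclei of replicates 1 and 2, 1011 and 1463 in other FAP nuclei and 10795 and 7791 in mural nuclei, with Gucy1a2 the most abundant in both and all 12 seen. The 10 endothelial genes summed to 182 and 293 CPM in committed and 159 and 203 in other FAP nuclei, with Eng the most abundant in replicate 1, Mecom in replicate 2 and Egfl7 at 0, and the 12 immune genes summed to 313 and 437 CPM in committed and 358 and 487 in other FAP nuclei, with Ptprj the most abundant. Adipocyte transcripts were thus somewhat higher and mesothelial transcripts lower in committed than in other FAP nuclei of both libraries, and mural transcripts higher. The adipocyte list also summed to 10328 and 7848 CPM in mesothelial, 18221 and 12763 in endothelial, 13604 and 8158 in immune and 14003 and 8527 in mural nuclei. Its level was thus not particular to committed nuclei. Over 1 UMI of the 4 mural gate genes was found in 3 of 40 and 27 of 362 committed nuclei and in 0 of 141 and 20 of 779 other FAP nuclei, and over 3 UMIs of the mesothelial list in 3 and 42 committed and in 17 and 292 other FAP nuclei. What these transcripts contribute to any difference below was not tested, and fits without such nuclei are given with the calls.

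**Figure D3:**
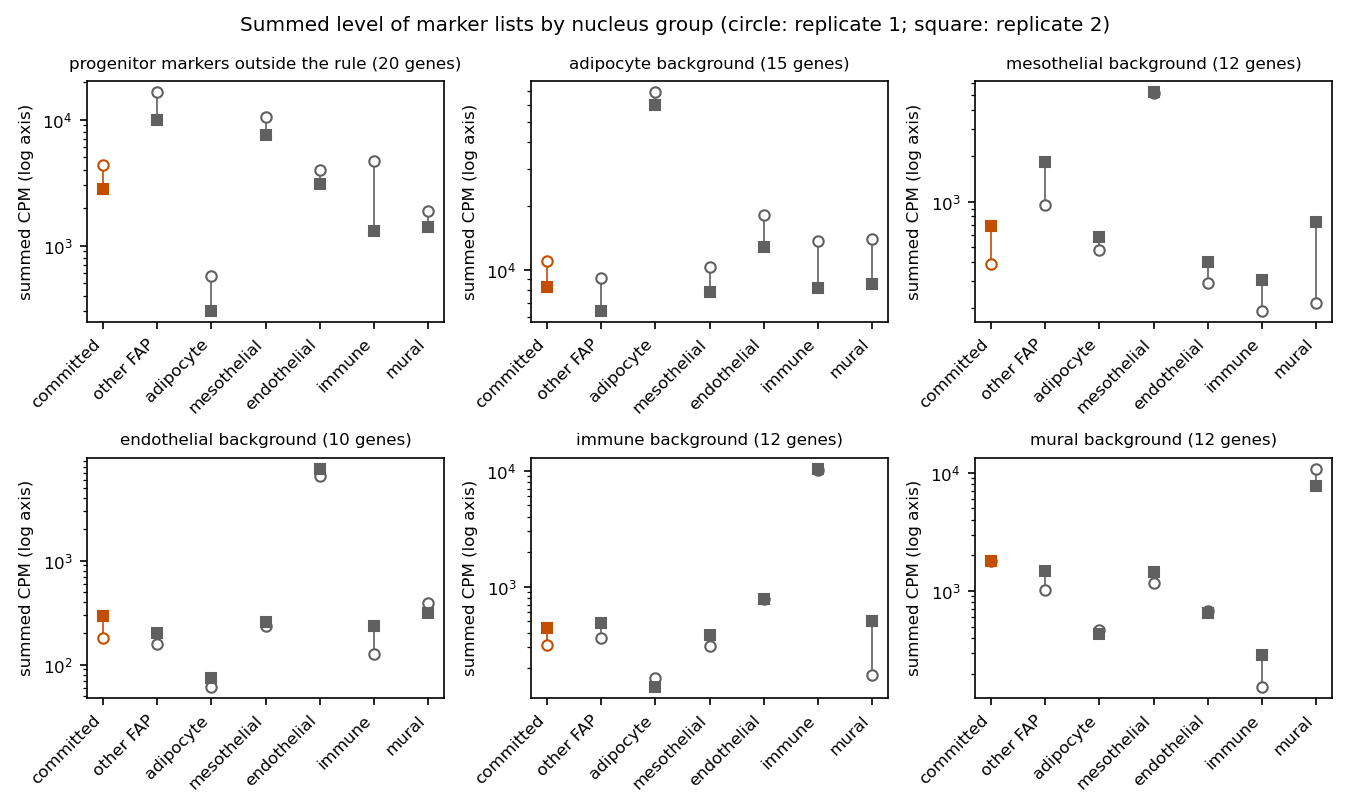
Summed CPM (log axis) of marker lists in 7 nucleus groups, circles for replicate 1 and squares for replicate 2. Committed nuclei (orange) sum to 4353 and 2833 CPM for progenitor markers outside the rule, other FAP nuclei to 16411 and 9917 CPM.

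Committed nuclei made up 22.1% of FAP nuclei in replicate 1 (40 of 181, 95% Clopper-Pearson interval 16.3% to 28.9%) and 31.7% in replicate 2 (362 of 1141, 29.0% to 34.5%). The intervals, which cover counting error only, did not overlap, by a narrow gap. They stayed apart in nuclei thinned to 1000 UMIs (23.9% to 41.4% and 44.2% to 51.8%), without FAP nuclei with over 3 mesothelial UMIs (16.7% to 30.3% and 36.3% to 43.1%) and without those with over 1 mural gate UMI (15.1% to 27.5% and 27.9% to 33.4%). They overlapped under the 5% mitochondrial limit (18.4% to 38.6% and 28.9% to 34.4%), with under 4 adipocyte UMIs (16.7% to 30.7% and 28.9% to 34.8%) and with at least 10 UMIs of the FAP genes (12.6% to 27.4% and 26.5% to 33.4%). Of all filtered nuclei they made up 1.41% (1.01% to 1.92%) and 2.96% (2.67% to 3.28%). With every nucleus thinned to 1000 UMIs the share of FAP nuclei was 32.2% (38 of 118) and 48% (324 of 675), and this moved the FAP condition, P and C at once, with fewer FAP nuclei in both libraries. By the C condition alone it was 8.84% and 10.2%, with intervals of 5.14% to 14.0% and 8.47% to 12.1% that overlapped between the libraries.

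The first comparison asked how committed nuclei differed from the other FAP nuclei of the same mice in genes the rule did not use. UMIs were summed per library and nucleus group and tested in edgeR, with the library as a block and 2 libraries on each side, and the adjusted p beside each fold change is from its quasi-likelihood F test with Benjamini-Hochberg adjustment over 12445 genes. An adjusted p under an alternative is from the fit of that alternative, which can use DESeq2 or another number of genes. Called genes numbered 353 (2.84%) at an adjusted p under 0.05, 114 higher (0.916%) and 239 lower (1.92%) in committed nuclei. Of the 114 higher genes, 110 were higher in replicate 1 and 114 in replicate 2, and of the 239 lower genes, 237 and 239 were lower. The median log2 fold change was 1.51 among the higher genes, -1.54 among the lower ones and -0.02 among all genes tested. Without the library as a block 1 gene was called higher and 22 lower, and with DESeq2 62 and 123. Within a window of middle depth for both groups 64 and 178 were called, and 59 and 170 of these were among the 114 and 239. Under a mitochondrial limit of 5%, with fewer nuclei and nucleus groups and with 13870 genes tested, the counts were 33 and 106.

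Other FAP nuclei held many with mesothelial transcripts, 292 of 779 in replicate 2 with over 3 UMIs of the list. Without such FAP nuclei 70 of the 114 higher and 195 of the 239 lower genes were called, and 13 of the lower genes had the opposite sign. Of the called genes named in this text, those not called in that fit were Pparg, Upk1b, Pkhd1l1, Muc16, Efna5, Bnc1, Gpm6a, Sparcl1, Col4a1, Col27a1, Fgf7, Fgf10, Bmp6, Nrp1, Robo2, Plxna4, Il1rapl1 and Cgn. Upk1b, Muc16, Efna5, Bnc1 and Gpm6a are on that list, so nothing is read from this for them. Without FAP nuclei that held over 1 mural gate UMI 83 of the 114 and 233 of the 239 were called, and the named genes not called were Pparg, Lin7a, Abcc9, Gucy1a2, Col27a1, Fgf10, Igfbp7, Robo2 and Itga1. In that fit 0 of the 114 and 0 of the 239 had the opposite sign.

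**Figure D4:**
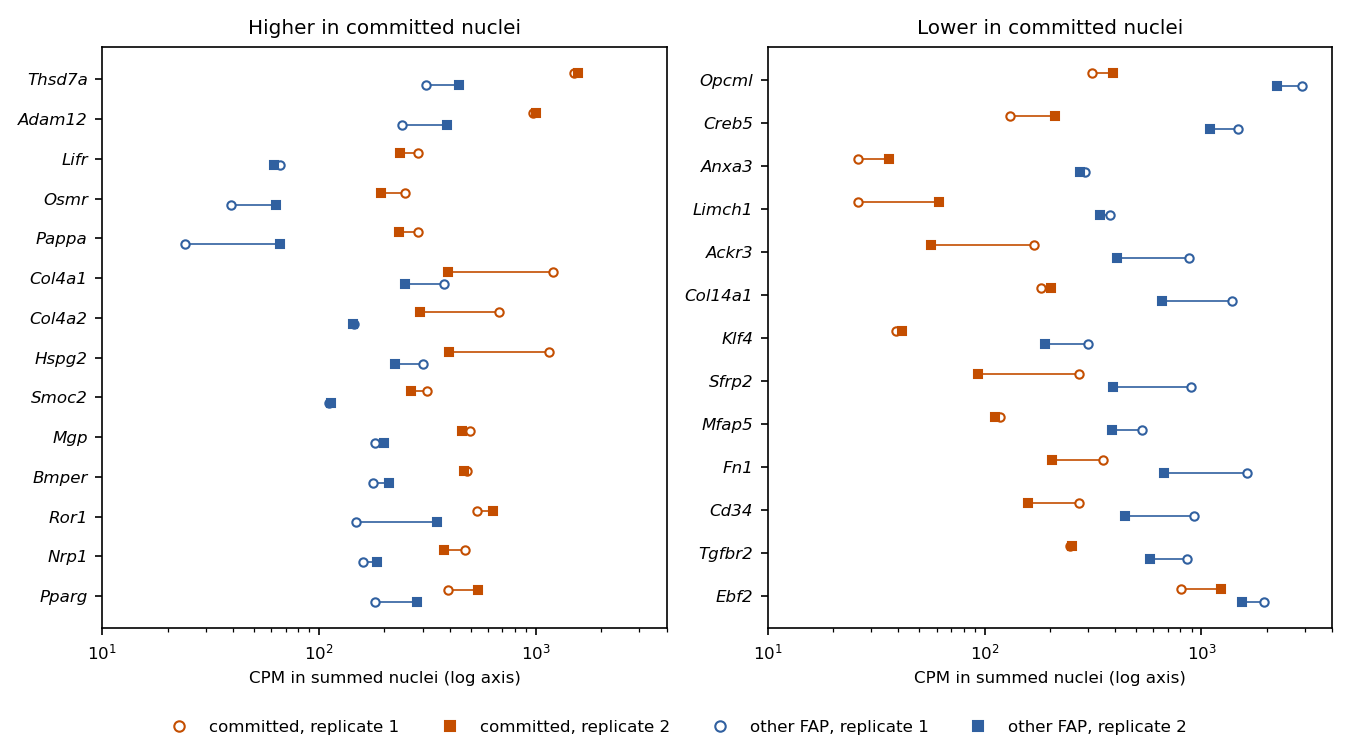
CPM (log axis) of 27 genes in committed (orange) and other FAP nuclei (blue), circles for replicate 1 and squares for replicate 2, each gene called by the edgeR test. Every library of committed nuclei lies on the named side of both libraries of other FAP nuclei for these genes, as for Thsd7a at 1499 and 1555 against 309.9 and 439.7 CPM.

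Lists are counted over the genes that reached 15.6 CPM, the level of the filter on low counts, in both libraries of committed nuclei, since a gene under it needed other nucleus groups to pass. This choice, made after the data were seen, favours genes that are high in committed nuclei. Of all 12445 genes 6666 reached it, 107 called higher and 171 lower, with a median of 0.0074. Of 19 progenitor markers outside the rule 14 reached it, of which 14 were lower and 0 higher, with a median log2 fold change of -1.93. Ly6c1, Dact2, Efhd1 and Uchl1 were called lower but stood under this level in at least 1 library and are not counted. The whole list of 20 genes summed to 10403.5 and 7595 CPM in mesothelial nuclei, against 4353 and 2833 in committed and 16411 and 9917 in other FAP nuclei. A high level of the list was thus not particular to other FAP nuclei. Opcml, which encodes a cell adhesion protein, stood at 313 and 389.7 CPM in committed nuclei and 2924 and 2231 CPM in other FAP nuclei (log2 fold change -2.90 ± 0.26 SE, edgeR adjusted p = 6.54e-21). Creb5, a transcription factor gene, stood at 130.3 and 211 CPM in committed nuclei and 1480.1 and 1092 CPM in other FAP nuclei (log2 fold change -3.02 ± 0.28 SE, edgeR adjusted p = 7.73e-20). Limch1, whose protein binds actomyosin, stood at 26.1 and 61.8 CPM in committed nuclei and 379 and 339.9 CPM in other FAP nuclei (log2 fold change -2.90 ± 0.33 SE, edgeR adjusted p = 1.47e-13), and Anxa3, an annexin gene, at 26.1 and 36.3 CPM in committed nuclei and 292 and 276 CPM in other FAP nuclei (log2 fold change -3.06 ± 0.36 SE, edgeR adjusted p = 3.23e-13). Both were several times lower in each library, and each had 2 UMIs in committed nuclei of replicate 1. The within-library log2 ratio of Limch1 was -3.86 in replicate 1 alone and -2.46 in replicate 2 alone, that of Creb5 -3.51 in replicate 1 alone and -2.37 in replicate 2 alone. These 4 genes were called under all 13 alternatives, with adjusted p of at most 0.00763.

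Surface and matrix genes of the progenitor list moved the same way. Ackr3, an atypical chemokine receptor gene, stood at 169 and 56.4 CPM in committed nuclei and 872 and 406 CPM in other FAP nuclei (log2 fold change -2.84 ± 0.31 SE, edgeR adjusted p = 2.91e-15). Cd34, a sialomucin gene used to sort stromal progenitors, stood at 274 and 159 CPM in committed nuclei and 927 and 443 CPM in other FAP nuclei (log2 fold change -1.73 ± 0.27 SE, edgeR adjusted p = 1.12e-07), and Cd248, which encodes endosialin, at 299.7 and 77.9 CPM in committed nuclei and 731 and 324 CPM in other FAP nuclei (log2 fold change -1.93 ± 0.30 SE, edgeR adjusted p = 1.10e-07). Fn1, the fibronectin gene, stood at 352 and 204 CPM in committed nuclei and 1628 and 671 CPM in other FAP nuclei (log2 fold change -1.92 ± 0.26 SE, edgeR adjusted p = 5.30e-10), and Mfap5, a microfibril gene, at 117 and 112 CPM in committed nuclei and 529 and 389 CPM in other FAP nuclei (log2 fold change -2.01 ± 0.30 SE, edgeR adjusted p = 2.17e-08). Efemp1, an elastic fibre gene, stood at 1056 and 543 CPM in committed nuclei and 2319 and 1361 CPM in other FAP nuclei (log2 fold change -1.39 ± 0.24 SE, edgeR adjusted p = 3.97e-06). In the fit without the library block the calls for Ackr3, Cd34, Cd248, Fn1 and Efemp1 were lost (adjusted p 0.0531, 0.147, 0.225, 0.508 and 0.451, each the largest of 13 alternatives, the smallest at most 6.85e-09), while Mfap5 was called there (0.0365). The log2 ratio of Cd248 was -1.29 in replicate 1 alone and -2.06 in replicate 2 alone. Uchl1, a ubiquitin hydrolase gene, had 0 and 1 UMIs in committed nuclei and 22 and 52 in other FAP nuclei.

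Committed preadipocyte markers outside the rule gave a weaker picture: 3 of 13 rose, 1 fell and 9 did not pass, with a median log2 fold change of 0.59. Pparg, the master regulator of adipogenesis, stood at 391 and 543 CPM in committed nuclei and 180.5 and 283 CPM in other FAP nuclei (log2 fold change 0.88 ± 0.27 SE, edgeR adjusted p = 0.0412). It was higher in both libraries, as was the sum of the adipocyte list. Pparg was called under 2 of 13 alternatives, with adjusted p from 0.00859 to 1.00, the largest under the 5% mitochondrial limit. Smoc2, a matricellular gene, stood at 313 and 265 CPM in committed nuclei and 111 and 113 CPM in other FAP nuclei (log2 fold change 1.21 ± 0.30 SE, edgeR adjusted p = 0.00494). Smoc2 was called under 10 of 13 alternatives, with adjusted p from 5.05e-05 to 0.597, the largest under the 5% mitochondrial limit. Sparcl1, which encodes a secreted matrix protein, stood at 873 and 478 CPM in committed nuclei and 436 and 249 CPM in other FAP nuclei (log2 fold change 0.85 ± 0.24 SE, edgeR adjusted p = 0.0227), while mural nuclei held 2124 and 614 CPM. Sparcl1 was called under 5 of 13 alternatives, with adjusted p from 0.00743 to 1.000, the largest without the library block. Gpc3, a glypican gene, fell from 532 and 518 CPM in other FAP nuclei to 287 and 286 CPM in committed nuclei (log2 fold change -1.03 ± 0.26 SE, edgeR adjusted p = 0.00697). Gpc3 was called under 10 of 13 alternatives, with adjusted p from 1.36e-05 to 0.548, the largest without the library block. Not past the threshold were Lpl, the lipoprotein lipase gene, at 1420.4 and 829 CPM in committed and 989.7 and 498 CPM in other FAP nuclei, and Fabp4, a fatty acid carrier gene, at 1134 and 573 CPM in committed and 1095 and 512 CPM in other FAP nuclei.

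**Figure D5:**
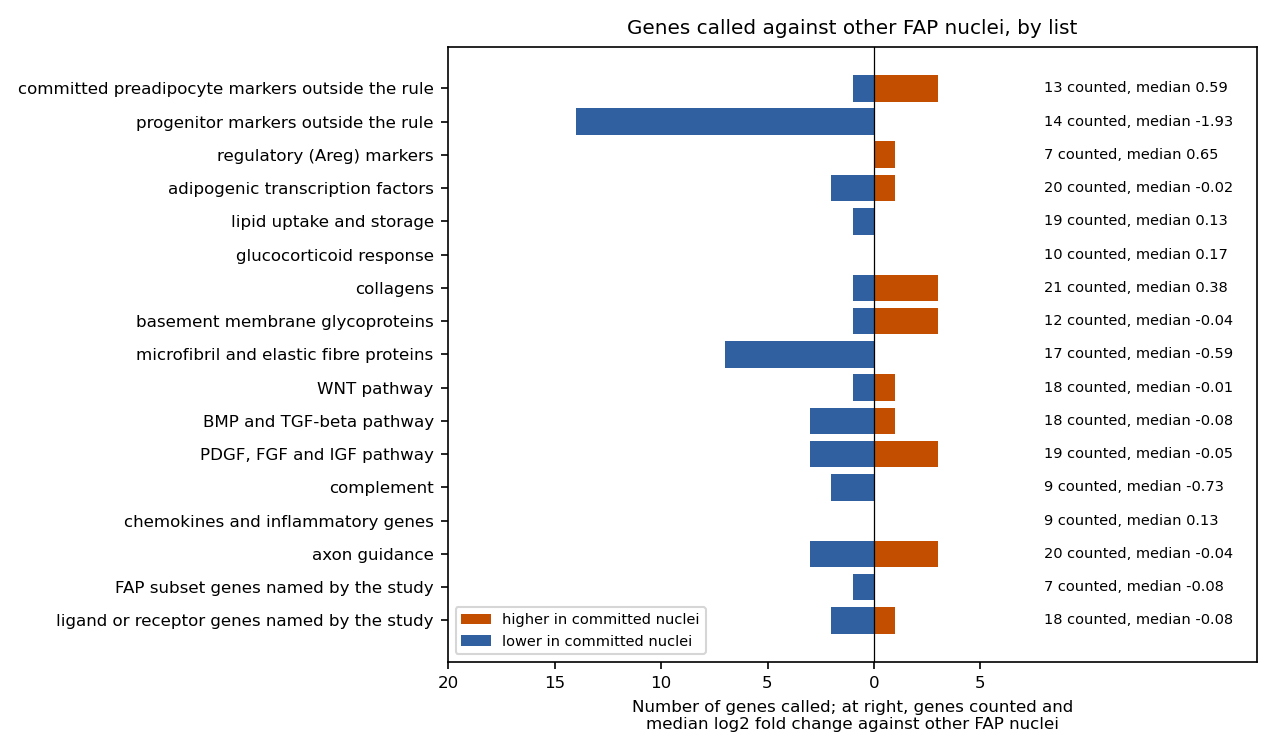
Number of genes called higher (right, orange) and lower (left, blue) in committed than in other FAP nuclei for each gene list, with the number counted, which reached the level of the filter on low counts in both committed libraries, and the median log2 fold change. Progenitor markers outside the rule stand out with 14 of 14 lower.

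Regulatory (Areg) markers, known from stromal cells that hold back adipogenesis, gave 1 higher, 0 lower and 6 not called of 7, with a median of 0.65. The higher gene was Mgp, an inhibitor of calcification, at 495 and 456 CPM in committed nuclei and 180.5 and 199 CPM in other FAP nuclei (log2 fold change 1.20 ± 0.26 SE, edgeR adjusted p = 3.42e-04). Mesothelial nuclei held 559.7 and 333 CPM of Mgp. In replicate 1 the second sub-cluster, of 5 nuclei, held 18 of 38 of the committed UMIs, and without it Mgp stood at 292 CPM there. Mgp was called under 9 of 13 alternatives, with adjusted p from 1.53e-06 to 0.675, the largest under the 5% mitochondrial limit. Gdf10, which marks such cells, stood at 352 and 207 CPM in committed and 219.6 and 123 CPM in other FAP nuclei, and F3, another marker, at 287 and 254 CPM in committed and 168 and 137 CPM in other FAP nuclei, and neither passed.

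Among adipogenic transcription factors 1 of 20 rose (Pparg), 2 fell and 17 did not pass, with a median of -0.022. Klf4, a factor of immature cells and early adipogenesis, stood at 39.1 and 41.7 CPM in committed nuclei and 301 and 191 CPM in other FAP nuclei (log2 fold change -2.49 ± 0.37 SE, edgeR adjusted p = 2.42e-08), with 3 and 31 UMIs in committed nuclei, and it was called under all 13 alternatives. Ebf2, which marks preadipocytes, stood at 808 and 1227 CPM in committed nuclei and 1937 and 1533 CPM in other FAP nuclei (log2 fold change -0.99 ± 0.24 SE, edgeR adjusted p = 0.00438). Ebf2 was called under 10 of 13 alternatives, with adjusted p from 1.11e-04 to 1.000, the largest without the library block. Its log2 ratio was -1.26 in replicate 1 alone and -0.32 in replicate 2 alone. Ebf1 stood at 2971 and 3005 CPM in committed and 2298 and 2447 CPM in other FAP nuclei, and Cebpa at 104 and 44.3 CPM in committed and 54.1 and 27.7 CPM in other FAP nuclei, neither past the threshold. The glucocorticoid receptor gene Nr3c1 stood at 430.0 and 413 CPM in committed and 403 and 413 CPM in other FAP nuclei and was not called either.

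Lipid uptake and storage genes gave 0 higher and 1 lower of 19, with a median of 0.13. The lower gene was Vldlr, a lipoprotein receptor gene, at 26.1 and 73.9 CPM in committed nuclei and 309.9 and 202 CPM in other FAP nuclei (log2 fold change -1.97 ± 0.34 SE, edgeR adjusted p = 3.78e-06). Vldlr was called under 12 of 13 alternatives, with adjusted p from 9.33e-08 to 0.0667, the largest without the library block. Its log2 ratio was -3.57 in replicate 1 alone, with 2 UMIs in committed nuclei there, and -1.45 in replicate 2 alone. None of 10 glucocorticoid response genes was called by edgeR, and the number at an unadjusted p under 0.05 was 2, while DESeq2 called 0. Their median was 0.17. Fkbp5, a glucocorticoid target, stood at 261 and 396 CPM in committed and 165 and 218 CPM in other FAP nuclei.

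Collagen genes split: 3 of 21 rose, 1 fell and 17 did not pass, with a median of 0.38. Col4a1 and Col4a2 encode the main collagen chains of basement membranes and share a promoter region. Col4a2 stood at 678 and 293 CPM in committed nuclei and 144 and 144 CPM in other FAP nuclei (log2 fold change 1.40 ± 0.27 SE, edgeR adjusted p = 5.73e-05), and Col4a1 at 1199 and 391 CPM in committed nuclei and 376 and 249 CPM in other FAP nuclei (log2 fold change 0.99 ± 0.25 SE, edgeR adjusted p = 0.00495). Both were higher in each library, more so in replicate 1, where the log2 ratio alone was 2.23 for Col4a2 and 1.67 for Col4a1 (in replicate 2 alone 1.03 and 0.65). Col4a2 was called under 12 of 13 alternatives, with adjusted p from 9.20e-07 to 0.197, the largest without the library block. Col4a1 was called under 7 of 13 alternatives, with adjusted p from 3.04e-04 to 0.815, the largest without the library block. Col27a1, a fibrillar collagen gene, stood at 143 and 106 CPM in committed nuclei and 48.1 and 33.8 CPM in other FAP nuclei (log2 fold change 1.48 ± 0.44 SE, edgeR adjusted p = 0.0354). Col27a1 was called under 4 of 13 alternatives, with adjusted p from 0.0170 to 0.548, the largest without the library block.

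Col14a1, which encodes a fibril-associated collagen, stood at 182 and 203 CPM in committed nuclei and 1384 and 659.6 CPM in other FAP nuclei (log2 fold change -2.33 ± 0.27 SE, edgeR adjusted p = 2.01e-13), and it was called under all 13 alternatives, with adjusted p of at most 0.0103. Its log2 ratio was -2.92 in replicate 1 alone and -1.70 in replicate 2 alone. Col4a5, a minor type IV chain not counted above, had 0 and 67 UMIs in committed nuclei and 44 and 476 in other FAP nuclei. It passed the filter on low counts through other nucleus groups, so the counts alone are given. Col5a2, a fibrillar collagen gene, stood at 391 and 626 CPM in committed and 487 and 538 CPM in other FAP nuclei, and Col6a3, of beaded filaments, at 626 and 452 CPM in committed and 349 and 349 CPM in other FAP nuclei, and neither was called.

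Basement membrane glycoproteins gave 3 higher (Hspg2, Sparcl1, Smoc2), 1 lower and 8 not called of 12, with a median of -0.036. Hspg2 encodes perlecan, a heparan sulphate proteoglycan of basement membranes. It stood at 1147 and 398 CPM in committed nuclei and 301 and 224 CPM in other FAP nuclei (log2 fold change 1.20 ± 0.25 SE, edgeR adjusted p = 2.45e-04), and the log2 ratio was 1.93 in replicate 1 alone and 0.83 in replicate 2 alone. Hspg2 was called under 12 of 13 alternatives, with adjusted p from 5.32e-05 to 0.408, the largest without the library block. Nid1, whose protein nidogen links laminin to type IV collagen, fell, with 1056 and 497 CPM in committed nuclei and 2136 and 972 CPM in other FAP nuclei (log2 fold change -1.15 ± 0.24 SE, edgeR adjusted p = 2.30e-04). Nid1 was called under 11 of 13 alternatives, with adjusted p from 3.61e-06 to 0.726, the largest without the library block. The laminin gene Lamb1 stood at 717 and 356 CPM in committed and 755 and 456 CPM in other FAP nuclei and Lamc1 at 951 and 577 CPM in committed and 1029 and 736 CPM in other FAP nuclei, and neither was called.

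Of the genes that rose in the basement membrane list and in the growth factor list described further on, those with a promoter entry are shown with the 250 bases before their start, and Sparcl1 and Smoc2 had no entry. Sequences are RefSeq promoters on build GRCm38.p6, read 5′ to 3′ on the strand of the gene, and 4 of 6 genes matched. Capitals mark matches on either strand to 4 motifs. The CCAAT box was found in 33.9% of all 32841 promoters of this length, and the GC box, GGGCGG, in 32.7%. The TATA motif, TATAAA, was found in 12.4% and the palindrome of EBF factors in 0.780%. Hspg2 (chr4:137468553-137468802, plus strand) has a GC content of 70.0% and 5 matches to GGGCGG, all on the strand of the gene. Fgf7 (chr2:126034408-126034657, plus strand) has a GC content of 43.6% and 1 match to CCAAT, 53 bases before the start. Fgf10 (chr13:118714449-118714698, plus strand) has a GC content of 61.2% and 1 match to GGGCGG on the opposite strand, 199 bases before the start. Igfbp7 (chr5:77408046-77408295, minus strand) has a GC content of 74.0% and 4 matches to GGGCGG, at 110, 96, 74 and 44 bases before the start, the one at 74 on the opposite strand. The 4 windows hold 0 matches to the TATA motif or the EBF palindrome. Fgf7 thus differs from the other 3 in base composition and in its motif, and a match describes letters only.
Hspg2: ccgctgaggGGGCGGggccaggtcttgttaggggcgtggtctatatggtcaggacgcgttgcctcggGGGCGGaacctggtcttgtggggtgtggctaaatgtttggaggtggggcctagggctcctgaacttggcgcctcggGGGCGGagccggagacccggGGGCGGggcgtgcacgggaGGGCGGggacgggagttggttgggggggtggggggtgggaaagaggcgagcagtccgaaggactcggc
Fgf7: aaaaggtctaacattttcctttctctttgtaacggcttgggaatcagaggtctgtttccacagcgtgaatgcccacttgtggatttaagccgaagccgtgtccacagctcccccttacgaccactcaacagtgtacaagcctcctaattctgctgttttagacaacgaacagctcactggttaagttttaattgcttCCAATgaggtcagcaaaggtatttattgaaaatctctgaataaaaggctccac
Fgf10: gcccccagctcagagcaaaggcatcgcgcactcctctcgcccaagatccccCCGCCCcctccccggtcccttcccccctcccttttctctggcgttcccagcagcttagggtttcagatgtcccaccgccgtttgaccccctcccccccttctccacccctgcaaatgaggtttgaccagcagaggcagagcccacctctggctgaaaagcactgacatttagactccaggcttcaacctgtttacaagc
Igfbp7: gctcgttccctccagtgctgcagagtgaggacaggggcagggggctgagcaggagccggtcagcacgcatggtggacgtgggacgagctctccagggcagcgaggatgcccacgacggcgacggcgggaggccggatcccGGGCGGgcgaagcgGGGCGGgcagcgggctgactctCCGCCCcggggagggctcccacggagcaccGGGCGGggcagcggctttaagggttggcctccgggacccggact

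Microfibril and elastic fibre proteins gave 0 higher, 7 lower and 10 not called of 17, with a median of -0.59. Besides Mfap5, Efemp1 and Fn1, which are also on the progenitor list, these were Emilin2, Adamts5, Adamtsl1 and Thsd4. Emilin2, an elastic fibre gene, stood at 52.1 and 84.7 CPM in committed nuclei and 451 and 277 CPM in other FAP nuclei (log2 fold change -1.96 ± 0.30 SE, edgeR adjusted p = 1.46e-07). Adamts5, a protease of aggrecan and versican, stood at 248 and 312 CPM in committed nuclei and 929.6 and 704 CPM in other FAP nuclei (log2 fold change -1.53 ± 0.26 SE, edgeR adjusted p = 1.77e-06). Thsd4, whose protein binds fibrillin, stood at 91.2 and 199 CPM in committed nuclei and 493 and 492 CPM in other FAP nuclei (log2 fold change -1.65 ± 0.28 SE, edgeR adjusted p = 1.73e-06). All 3 were lower in both libraries, and the calls were lost without the library block (adjusted p 0.197, 0.114 and 0.0770, each the largest of 13 alternatives, the smallest at most 6.79e-08). The log2 ratio of Emilin2 was -3.11 in replicate 1 alone and -1.71 in replicate 2 alone, and that of Thsd4 -2.44 in replicate 1 alone and -1.31 in replicate 2 alone. Adamtsl1 stood at 847 and 1031 CPM in committed nuclei and 1273 and 1975 CPM in other FAP nuclei (log2 fold change -0.94 ± 0.25 SE, edgeR adjusted p = 0.00904). Adamtsl1 was called under 11 of 13 alternatives, with adjusted p from 2.98e-05 to 1.000, the largest without the library block. Elastin itself (Eln) stood at 104 and 156 CPM in committed and 301 and 234 CPM in other FAP nuclei and did not pass.

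In the WNT pathway 1 of 18 genes rose, 1 fell and 16 did not pass, with a median of -0.0078. Ror1, a receptor for WNT5A, stood at 534 and 636 CPM in committed nuclei and 147 and 349 CPM in other FAP nuclei (log2 fold change 1.10 ± 0.26 SE, edgeR adjusted p = 0.00214). Its log2 ratio was 1.86 in replicate 1 alone and 0.87 in replicate 2 alone. Ror1 was called under 9 of 13 alternatives, with adjusted p from 9.26e-04 to 0.770, the largest without the library block. Sfrp2, a secreted WNT modulator, stood at 274 and 92.7 CPM in committed nuclei and 899 and 392 CPM in other FAP nuclei (log2 fold change -2.10 ± 0.29 SE, edgeR adjusted p = 8.64e-10). Sfrp2 was called under 12 of 13 alternatives, with adjusted p from 1.87e-16 to 0.197, the largest without the library block. Wnt10b, a ligand that holds back adipogenesis and is not counted here, had 1 and 1 UMIs in committed nuclei and 25 and 50 in other FAP nuclei.

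Of the BMP and TGF-beta pathway 1 of 18 genes rose, 3 fell and 14 did not pass, with a median of -0.079. Bmper, a secreted BMP-binding protein, stood at 482 and 466 CPM in committed nuclei and 177 and 209 CPM in other FAP nuclei (log2 fold change 1.14 ± 0.27 SE, edgeR adjusted p = 0.00267). Bmper was called under 10 of 13 alternatives, with adjusted p from 1.31e-04 to 0.339, the largest without the library block. Tgfbr2, the type II TGF-beta receptor gene, stood at 248 and 253 CPM in committed nuclei and 854 and 576 CPM in other FAP nuclei (log2 fold change -1.59 ± 0.26 SE, edgeR adjusted p = 1.08e-06), and Fstl1, a secreted glycoprotein gene, at 821 and 369.6 CPM in committed nuclei and 1992 and 987 CPM in other FAP nuclei (log2 fold change -1.51 ± 0.24 SE, edgeR adjusted p = 5.31e-07). Both fell in each library, and the calls were lost without the library block (adjusted p 0.0786 and 0.383, each the largest of 13 alternatives, the smallest at most 4.36e-08). Id3, a target of BMP signals, stood at 91.2 and 32.3 CPM in committed nuclei and 208 and 67.6 CPM in other FAP nuclei (log2 fold change -1.26 ± 0.37 SE, edgeR adjusted p = 0.0267). Id3 was called under 7 of 13 alternatives, with adjusted p from 4.24e-04 to 1.00, the largest under the 5% mitochondrial limit. The ligand gene Bmp6, not counted, had 0 and 44 UMIs in committed nuclei and 32 and 256 in other FAP nuclei. It passed the filter on low counts through other nucleus groups, so the counts alone are given.

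In the PDGF, FGF and IGF pathway 3 of 19 genes rose, 3 fell and 13 did not pass, with a median of -0.045. Fgf7 and Fgf10 encode growth factors of mesenchymal cells that act on epithelial receptors, and FGF10 is known to promote adipogenesis. Fgf10 stood at 287 and 339 CPM in committed nuclei and 105 and 179.5 CPM in other FAP nuclei (log2 fold change 0.98 ± 0.28 SE, edgeR adjusted p = 0.0227). Fgf7 stood at 339 and 126 CPM in committed nuclei and 60.2 and 66.1 CPM in other FAP nuclei (log2 fold change 1.38 ± 0.39 SE, edgeR adjusted p = 0.0182), with a log2 ratio of 2.49 in replicate 1 alone and 0.94 in replicate 2 alone. Fgf10 was called under 5 of 13 alternatives, with adjusted p from 0.00657 to 0.761, the largest without the library block. Fgf7 was called under 5 of 13 alternatives, with adjusted p from 0.00370 to 0.523, the largest without the library block. Igfbp7, a secreted binding protein, stood at 860.1 and 446 CPM in committed nuclei and 277 and 304 CPM in other FAP nuclei (log2 fold change 0.88 ± 0.25 SE, edgeR adjusted p = 0.0221), with a log2 ratio of 1.64 in replicate 1 alone and 0.55 in replicate 2 alone and 1994 and 810.4 CPM in mural nuclei. Igfbp7 was called under 6 of 13 alternatives, with adjusted p from 0.00699 to 0.751, the largest without the library block. These 3 genes, with the promoters shown above, were higher in both libraries.

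The falling members were Igfbp5, Igfbp6 and Pdgfd. Igfbp5 stood at 678 and 356 CPM in committed nuclei and 1351 and 819 CPM in other FAP nuclei (log2 fold change -1.25 ± 0.25 SE, edgeR adjusted p = 9.31e-05) and Igfbp6 at 326 and 294 CPM in committed nuclei and 1206 and 604 CPM in other FAP nuclei (log2 fold change -1.45 ± 0.26 SE, edgeR adjusted p = 6.40e-06). Pdgfd, a ligand of the PDGF beta receptor, stood at 104 and 223 CPM in committed nuclei and 412 and 576 CPM in other FAP nuclei (log2 fold change -1.57 ± 0.28 SE, edgeR adjusted p = 5.19e-06). All 3 were lower in both libraries and lost their calls without the library block (adjusted p 0.655, 0.400 and 0.225, each the largest of 13 alternatives, the smallest at most 9.59e-08). In replicate 2 the second sub-cluster held 147 of 265 committed UMIs of Igfbp5 and 125 of 219 of Igfbp6. The receptor gene Pdgfra stood at 691 and 485 CPM in committed and 559.5 and 468 CPM in other FAP nuclei and Pdgfrb at 299.7 and 180.1 CPM in committed and 111 and 91.8 CPM in other FAP nuclei, and neither was called.

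Axon guidance genes gave 3 higher, 3 lower and 14 not called of 20, with a median of -0.043. The higher ones were receptors: Nrp1, a co-receptor of semaphorins and VEGF, stood at 469 and 378 CPM in committed nuclei and 159 and 186 CPM in other FAP nuclei (log2 fold change 1.09 ± 0.27 SE, edgeR adjusted p = 0.00478). Plxna2, a semaphorin receptor gene, stood at 78.2 and 146 CPM in committed nuclei and 39.1 and 61.0 CPM in other FAP nuclei (log2 fold change 1.16 ± 0.33 SE, edgeR adjusted p = 0.0193). Robo2, a receptor for SLIT ligands, stood at 91.2 and 109 CPM in committed nuclei and 9.03 and 45.9 CPM in other FAP nuclei (log2 fold change 1.51 ± 0.43 SE, edgeR adjusted p = 0.0219), with 3 UMIs in other FAP nuclei of replicate 1 and a log2 ratio of 3.34 in replicate 1 alone and 1.25 in replicate 2 alone. Nrp1 was called under 8 of 13 alternatives, with adjusted p from 0.00155 to 0.564, the largest without the library block. Plxna2 was called under 8 of 13 alternatives, with adjusted p from 0.0142 to 0.672, the largest without the library block. Robo2 was called under 6 of 13 alternatives, with adjusted p from 0.00386 to 0.502, the largest without the library block. In replicate 1 the second sub-cluster held 3 of 7 committed UMIs of Robo2.

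The lower axon guidance genes were Sema3d, Ntn4 and Efna5. Sema3d, a secreted semaphorin gene, stood at 91.2 and 41.7 CPM in committed nuclei and 223 and 156 CPM in other FAP nuclei (log2 fold change -2.06 ± 0.40 SE, edgeR adjusted p = 4.75e-05), with a log2 ratio of -1.29 in replicate 1 alone and -1.90 in replicate 2 alone. Ntn4, a netrin gene, stood at 39.1 and 37.6 CPM in committed nuclei and 129 and 100.3 CPM in other FAP nuclei (log2 fold change -1.66 ± 0.42 SE, edgeR adjusted p = 0.00642). Efna5 is an ephrin gene that mesothelial nuclei also express (557 and 867 CPM), and it stood at 104 and 237 CPM in committed nuclei and 307 and 603 CPM in other FAP nuclei (log2 fold change -1.40 ± 0.28 SE, edgeR adjusted p = 7.41e-05). Plxna4, not counted, stood at 13.03 and 146 CPM in committed, 156 and 318 CPM in other FAP and 749 and 1006 CPM in mesothelial nuclei. It had 1 UMI in committed nuclei of replicate 1 and passed the filter on low counts through other nucleus groups, so no test is given. Without FAP nuclei that held over 3 mesothelial UMIs the adjusted p of Efna5 was 0.230, at a log2 fold change of -0.75. The log2 fold change of Plxna4 was 0.079 in that fit. Efna5 is on the list whose UMIs decide which nuclei are left out, so nothing is read from that fit for it. Over 13 alternatives the adjusted p of Efna5 ran from 6.01e-06 to 0.373. Sema3d was called under 11 of 13 alternatives, with adjusted p from 5.91e-06 to 0.197, the largest without the library block. Ntn4 was called under 11 of 13 alternatives, with adjusted p from 0.00391 to 0.197, the largest without the library block.

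Complement genes gave 0 higher, 2 lower and 7 not called of 9, with a median of -0.73. C1s1, a protease gene of the classical pathway, stood at 508 and 406 CPM in committed nuclei and 1203 and 576 CPM in other FAP nuclei (log2 fold change -0.90 ± 0.24 SE, edgeR adjusted p = 0.0132). C1s1 was called under 8 of 13 alternatives, with adjusted p from 0.00420 to 0.861, the largest without the library block. C3 stood at 886 and 637 CPM in committed and 1423 and 962 CPM in other FAP nuclei and did not pass. None of 9 chemokine and inflammatory genes was called by edgeR (3 at an unadjusted p under 0.05, 0 by DESeq2), with a median of 0.13. The eotaxin gene Ccl11 stood at 729.8 and 175 CPM in committed and 385 and 178 CPM in other FAP nuclei.

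Genes that the study named were chosen by it on a set of libraries that includes these 2, so their counts are not independent evidence. Of 7 of its FAP subset genes 0 rose and 1 fell, with a median of -0.082. The falling gene was Il1rapl1, a synaptic adhesion gene, at 26.1 and 179 CPM in committed nuclei and 223 and 415 CPM in other FAP nuclei (log2 fold change -1.43 ± 0.29 SE, edgeR adjusted p = 1.29e-04), with 791 and 1147 CPM in mesothelial nuclei. Il1rapl1 was called under 11 of 13 alternatives, with adjusted p from 2.80e-06 to 0.972, the largest without nuclei rich in mesothelial UMIs. Its log2 ratio was -3.09 in replicate 1 alone, with 2 UMIs in committed nuclei there, and -1.22 in replicate 2 alone. Of 18 of its preadipocyte, ligand and receptor genes 1 rose (Fgf10) and 2 fell, with a median of -0.081. Axl, a receptor tyrosine kinase gene, stood at 326 and 203 CPM in committed nuclei and 641 and 481 CPM in other FAP nuclei (log2 fold change -1.26 ± 0.26 SE, edgeR adjusted p = 2.60e-04), and Tek, the angiopoietin receptor gene, at 104 and 161 CPM in committed nuclei and 367 and 375 CPM in other FAP nuclei (log2 fold change -1.48 ± 0.29 SE, edgeR adjusted p = 6.82e-05). Both were lower in each library, and the calls were lost without the library block (adjusted p 0.333 and 0.197, each the largest of 13 alternatives, the smallest at most 5.91e-06). Angpt1, the ligand of Tek, stood at 52.1 and 129 CPM in committed and 30.1 and 68.1 CPM in other FAP nuclei and did not pass. Dcn, the decorin gene, was abundant in both groups, at 8197 and 3795 CPM in committed and 8493 and 4329.6 CPM in other FAP nuclei.

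Cell cycle genes were nearly absent. Of 12 genes 4 could be tested, edgeR called 0 (0 at an unadjusted p under 0.05, 0 by DESeq2), and the 12 together gave 2 and 64 UMIs in committed nuclei and 9 and 105 in other FAP nuclei.

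By size of the fold change, the 10 leading genes higher in committed nuclei were Adap2, Sgip1, Lin7a, Abcc9, Slc35f1, Cdh19, Septin4, Rem1, Itga1 and Adcyap1r1. These genes reached the filter level of 15.6 CPM in both committed libraries. Adap2, Cdh19, Septin4 and Itga1 stood under that level in both libraries of other FAP nuclei, so their folds rest on low counts there. Of the 2 groups compared only committed nuclei reached the level for these genes, so no test is given for them. Adap2, whose protein binds phosphoinositides, stood at 39.1 and 141 CPM in committed nuclei and 9.03 and 13.6 CPM in other FAP nuclei. It had 3 UMIs in either group of replicate 1 and a log2 ratio of 2.11 in replicate 1 alone and 3.37 in replicate 2 alone. Mural nuclei held 217 and 249 CPM of Adap2. Slc35f1 stood at 117 and 86.0 CPM in committed nuclei and 24.1 and 15.6 CPM in other FAP nuclei (log2 fold change 2.30 ± 0.50 SE, edgeR adjusted p = 5.84e-04), Rem1, a small GTPase gene, at 65.2 and 65.9 CPM in committed nuclei and 18.1 and 11.6 CPM in other FAP nuclei (log2 fold change 2.23 ± 0.63 SE, edgeR adjusted p = 0.0212), and Adcyap1r1, the PACAP receptor gene, at 117 and 102 CPM in committed nuclei and 27.1 and 19.7 CPM in other FAP nuclei (log2 fold change 2.19 ± 0.53 SE, edgeR adjusted p = 0.00287). These 3 were higher in both libraries, and mural nuclei held 0 and 58.3, 43.4 and 53.0 and 0 and 53.0 CPM of them, no more than committed nuclei. Mural nuclei of replicate 1 were only 12, with 23066 UMIs in all, so their levels there rest on very few UMIs. With members taken by C the log2 fold change of Slc35f1 was -0.31 (edgeR adjusted p = 0.954, the largest of 13 alternatives, the smallest 6.40e-05). Rem1 was called under 11 of 13 alternatives, with adjusted p from 0.00589 to 0.333, the largest without the library block. Adcyap1r1 was called under 11 of 13 alternatives, with adjusted p from 1.36e-04 to 0.126, the largest without the library block. Cdh19, a cadherin gene, stood at 26.1 and 59.1 CPM in committed nuclei and 12.03 and 9.08 CPM in other FAP nuclei. Its log2 ratio was 1.11 in replicate 1 alone and 2.70 in replicate 2 alone.

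The other 5 leading genes, like Adap2, stood higher in mural than in committed nuclei of each library. For Septin4 in replicate 2 the levels were nearly equal, at 58.3 and 55.1 CPM. Sgip1, an endocytosis gene, stood at 222 and 130.4 CPM in committed nuclei and 3.01 and 30.8 CPM in other FAP nuclei (log2 fold change 2.74 ± 0.45 SE, edgeR adjusted p = 8.94e-07), with 564 and 731 CPM in mural nuclei and a log2 ratio of 6.20 in replicate 1 alone and 2.08 in replicate 2 alone. Lin7a stood at 248 and 47.0 CPM in committed nuclei and 9.03 and 16.1 CPM in other FAP nuclei (log2 fold change 2.71 ± 0.59 SE, edgeR adjusted p = 4.51e-04), with 390.2 and 551 CPM in mural nuclei and a log2 ratio of 4.78 in replicate 1 alone and 1.54 in replicate 2 alone. Abcc9, a channel subunit gene of mural cells, stood at 274 and 63.2 CPM in committed nuclei and 6.02 and 23.2 CPM in other FAP nuclei (log2 fold change 2.55 ± 0.52 SE, edgeR adjusted p = 1.62e-04), with 1778 and 853 CPM in mural nuclei and a log2 ratio of 5.51 in replicate 1 alone and 1.45 in replicate 2 alone. Septin4 stood at 78.2 and 55.1 CPM in committed nuclei and 6.02 and 13.6 CPM in other FAP nuclei. Itga1, an integrin gene, stood at 91.2 and 61.8 CPM in committed nuclei and 9.03 and 15.1 CPM in other FAP nuclei. Mural nuclei held 650.3 and 58.3 CPM of Septin4 and 910.4 and 514 CPM of Itga1. The log2 ratio of Septin4 was 3.70 in replicate 1 alone and 2.02 in replicate 2 alone, and that of Itga1 3.34 in replicate 1 alone and 2.03 in replicate 2 alone. For all 5 genes the ratio of replicate 1 rests on very few UMIs in other FAP nuclei. In replicate 1 the 2 nuclei of the third sub-cluster held 18 of 19 committed UMIs of Lin7a, 18 of 21 of Abcc9, 11 of 17 of Sgip1, 5 of 7 of Itga1 and 3 of 6 of Septin4. Without them the levels in replicate 1 were 13.9 CPM of Lin7a, 41.7 of Abcc9, 83.4 of Sgip1, 27.8 of Itga1 and 41.7 of Septin4. Without FAP nuclei that held over 1 mural gate UMI the adjusted p was 0.842 for Lin7a and 0.325 for Abcc9. These calls were lost, at log2 fold changes of 0.80 and 1.33. The log2 fold change of Itga1 was 1.37 in that fit. Without the third sub-cluster Itga1 stood at 27.8 and 50.5 CPM in committed nuclei. Over the alternatives the adjusted p ran from 1.04e-04 to 0.842 for Lin7a and from 5.65e-05 to 0.730 for Abcc9. Sgip1 was called under 12 of 13 alternatives, with adjusted p from 1.80e-07 to 0.0527, the largest without the library block.

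The mural list gave 2 higher (Abcc9, Gucy1a2), 1 lower (Rcan2) and 4 not called of 7, with a median of 0.75. Gucy1a2, a guanylate cyclase gene, stood at 704 and 770.1 CPM in committed nuclei and 253 and 434 CPM in other FAP nuclei (log2 fold change 0.96 ± 0.25 SE, edgeR adjusted p = 0.00826). Gucy1a2 was called under 8 of 13 alternatives, with adjusted p from 0.00780 to 0.844, the largest without the library block. Without nuclei with mural UMIs its adjusted p was 0.187, at a log2 fold change of 0.66. Rcan2 stood at 39.1 and 132 CPM in committed nuclei and 286 and 345 CPM in other FAP nuclei (log2 fold change -1.66 ± 0.30 SE, edgeR adjusted p = 1.26e-05), with a log2 ratio of -2.87 in replicate 1 alone and -1.39 in replicate 2 alone. Rcan2 was called under 12 of 13 alternatives, with adjusted p from 1.66e-06 to 0.127, the largest without the library block. Of the 12 mesothelial genes only 5 are counted, 0 higher and 3 lower. Muc16 stood at 39.1 and 43.0 CPM in committed nuclei and 144 and 251 CPM in other FAP nuclei (log2 fold change -2.41 ± 0.35 SE, edgeR adjusted p = 1.29e-08) and Gpm6a at 65.2 and 56.4 CPM in committed nuclei and 99.3 and 222 CPM in other FAP nuclei (log2 fold change -1.74 ± 0.34 SE, edgeR adjusted p = 7.41e-05). Without FAP nuclei that held over 3 mesothelial UMIs their adjusted p was 0.986 and 0.839, the log2 fold change of Gpm6a was 0.54, and nothing is read from this, since both are on the list whose UMIs decide which nuclei are left out. Over 13 alternatives the adjusted p ran from 1.39e-10 to 0.986 for Muc16 and from 1.15e-06 to 0.839 for Gpm6a. The log2 ratio of Gpm6a was -0.61 in replicate 1 alone and -1.98 in replicate 2 alone. Of 3 endothelial genes 0 were called by edgeR (1 at an unadjusted p under 0.05, 0 by DESeq2), with a median of 0.71, and of the 15 adipocyte genes 0 were called (2 and 0), with a median of 0.24. Of 5 immune genes 0 rose and 1 fell, with a median of 0.53, and the falling gene was the phosphatase gene Ptprj at 117 and 122 CPM in committed nuclei and 219.6 and 253 CPM in other FAP nuclei (log2 fold change -1.06 ± 0.29 SE, edgeR adjusted p = 0.0140). Ptprj was called under 11 of 13 alternatives, with adjusted p from 0.00106 to 0.490, the largest without the library block.

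On the lower side the 10 leading genes were Aif1l, F730311O21Rik, Uchl1, Ccn3, Ackr1, Cgn, Adamts16, Ackr2, Dact2 and Wnt10b. Apart from Adamts16 these genes had at most 3 UMIs in committed nuclei of a library. All 10 stood under the level of the filter on low counts in at least 1 committed library and passed it through other nucleus groups. Their order by fold therefore rests on counts at or near 0, and the counts alone are given. Adamts16, a protease gene, had 0 and 15 UMIs in committed nuclei and 155 and 388 in other FAP nuclei. Ccn3, a matricellular gene, had 0 and 2 UMIs in committed nuclei and 44 and 109 in other FAP nuclei. Ackr2, an atypical chemokine receptor gene, had 0 and 3 UMIs in committed nuclei and 20 and 93 in other FAP nuclei. The others had 0 or 1 UMI in committed nuclei of each library.

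A set of 6 further genes was chosen after their values were seen, because they were high in the first sub-cluster or among the called genes. Thsd7a, which encodes a membrane protein with thrombospondin repeats, stood at 1499 and 1555 CPM in committed nuclei and 309.9 and 439.7 CPM in other FAP nuclei (log2 fold change 1.89 ± 0.24 SE, edgeR adjusted p = 8.02e-11). In nuclei thinned to 1000 UMIs it was seen in 50% and 48.9% of committed nuclei, 19.9% and 23.4% of other FAP nuclei, and 0.975% and 1.76% of adipocyte nuclei. Adam12, a metalloprotease gene of adipogenic stroma, stood at 964 and 999.9 CPM in committed nuclei and 241 and 389 CPM in other FAP nuclei (log2 fold change 1.50 ± 0.25 SE, edgeR adjusted p = 1.08e-06). Lifr and Osmr, receptor genes for leukaemia inhibitory factor and oncostatin M, stood at 287 and 235 CPM in committed nuclei and 66.2 and 62.0 CPM in other FAP nuclei (log2 fold change 1.88 ± 0.30 SE, edgeR adjusted p = 3.42e-07) and at 248 and 192 CPM in committed nuclei and 39.1 and 63.0 CPM in other FAP nuclei (log2 fold change 1.80 ± 0.33 SE, edgeR adjusted p = 1.55e-05). Pappa, a protease that frees IGF from binding proteins, stood at 287 and 232 CPM in committed nuclei and 24.1 and 66.1 CPM in other FAP nuclei (log2 fold change 2.18 ± 0.36 SE, edgeR adjusted p = 1.08e-06), and Il1r1, the interleukin 1 receptor gene, at 469 and 457 CPM in committed nuclei and 126 and 222 CPM in other FAP nuclei (log2 fold change 1.22 ± 0.27 SE, edgeR adjusted p = 5.33e-04). All 6 were higher in both libraries, and in the fit without the library block the calls for Thsd7a, Adam12, Lifr, Osmr and Pappa were lost (adjusted p 0.0554, 0.156, 0.0554, 0.0797 and 0.0527, each the largest of 13 alternatives, the smallest at most 2.80e-06). Il1r1 was called under 11 of 13 alternatives, with adjusted p from 3.37e-05 to 0.294, the largest without the library block. The log2 ratio was 2.66 in replicate 1 alone and 1.61 in replicate 2 alone for Osmr, 3.57 in replicate 1 alone and 1.82 in replicate 2 alone for Pappa and 1.89 in replicate 1 alone and 1.04 in replicate 2 alone for Il1r1.

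Against adipocyte nuclei of the same libraries, the comparison asked how far the nuclei stood from the mature cell. Of 12445 genes 4672 were called (37.5%), 2454 higher (19.7%) and 2218 lower (17.8%) in committed nuclei. The all-gene median was -0.04, and 52.5% of calls were higher. The balance moved with the settings. With DESeq2, at a median of 0.14, 2400 were called higher and 1302 lower (64.8% higher), and without the library block 1645 and 1145 (59.0%). With no filter on low counts, at a median of -0.67, 1825 were called higher and 2970 lower (38.1%), with members taken by C 1417 and 1601 (47.0%), and within the window of middle depth 1920 and 2022 (48.7%). Over the 13 alternatives the higher share thus ran from 38.1% to 64.8%.

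Of the lipid uptake and storage list 15 of 19 fell and 1 rose, with a median of -2.61. Acaca, the first enzyme of fatty acid synthesis, stood at 938 and 1257 CPM in committed nuclei and 13419 and 17089 CPM in adipocyte nuclei (log2 fold change -4.26 ± 0.27 SE, edgeR adjusted p = 2.49e-42). Lpl stood at 1420.4 and 829 CPM in committed and 5415 and 2488 CPM in adipocyte nuclei (log2 fold change -2.19 ± 0.24 SE, edgeR adjusted p = 1.06e-16), and Fabp4 at 1134 and 573 CPM in committed and 4567 and 2121 CPM in adipocyte nuclei (log2 fold change -2.40 ± 0.25 SE, edgeR adjusted p = 9.00e-19). Ghr, the growth hormone receptor gene, stood at 1303 and 1969 CPM in committed and 11758 and 18218 CPM in adipocyte nuclei (log2 fold change -3.66 ± 0.26 SE, edgeR adjusted p = 5.26e-35). All 15 genes of the adipocyte list fell, with a median of -3.16. Pparg, whose call against other FAP nuclei was lost under most alternatives, stood far under the 3930.2 and 4522 CPM of adipocyte nuclei (log2 fold change -3.68 ± 0.27 SE, edgeR adjusted p = 2.76e-33).

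Named genes that stood higher in committed than in adipocyte nuclei are described here, with no test of stromal genes as a group. List genes are counted only where committed nuclei reached the filter level, so counts of higher genes here and below are a description and no support. Adipocyte nuclei were also limited to under 6 UMIs of the 7 stromal genes, collagens among them. Higher stromal genes and collagens here follow in part from that choice. Over all 6666 such genes 1593 were higher and 1472 lower, with a median of -0.11. Pdgfra had 8.63 and 4.75 CPM in adipocyte nuclei (log2 fold change 6.07 ± 0.30 SE, edgeR adjusted p = 5.28e-61), and Penk, the proenkephalin gene, stood at 534 and 223 CPM in committed and 3.35 and 2.48 CPM in adipocyte nuclei (log2 fold change 6.31 ± 0.34 SE, edgeR adjusted p = 1.92e-53). Thsd7a had 9.69 and 14.7 CPM in adipocyte nuclei (log2 fold change 6.49 ± 0.29 SE, edgeR adjusted p = 5.36e-71), Sparcl1 22.0 and 7.16 CPM (log2 fold change 5.25 ± 0.28 SE, edgeR adjusted p = 4.38e-55) and Dcn 267 and 104 CPM (log2 fold change 4.61 ± 0.27 SE, edgeR adjusted p = 9.50e-49). Of the committed marker list 8 of 13 rose and 4 fell, with a median of 3.58, and of the progenitor list 14 of 14 rose, with a median of 2.79. Collagens gave 19 of 21 higher, with a median of 1.98 and with Col6a3 at 626 and 452 CPM in committed and 28.0 and 25.6 CPM in adipocyte nuclei (log2 fold change 3.82 ± 0.27 SE, edgeR adjusted p = 2.16e-35). Of the adipogenic transcription factors 5 of 20 rose and 10 fell, with a median of -0.81. Ebf2 stood at 808 and 1227 CPM in committed and 149 and 292 CPM in adipocyte nuclei (log2 fold change 1.79 ± 0.24 SE, edgeR adjusted p = 1.57e-11) and Zfp521, a factor that holds back adipogenesis, at 326 and 516 CPM in committed and 15.7 and 25.1 CPM in adipocyte nuclei (log2 fold change 3.94 ± 0.27 SE, edgeR adjusted p = 7.97e-37). Of 10 glucocorticoid genes 3 rose and 4 fell, with a median of -0.49, and Fkbp5 had 32.2 and 88.3 CPM in adipocyte nuclei (log2 fold change 2.02 ± 0.27 SE, edgeR adjusted p = 6.75e-12). The genes with a fold change in these sentences were called under all 13 alternatives.

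Against mesothelial nuclei 1529 of 12445 genes were called (12.3%), 650 higher (5.22%) and 879 lower (7.06%) in committed nuclei, with an all-gene median of -0.04. Without the library block 310 and 342 were called, and the fit under a mitochondrial limit of 5% could not be fitted with mesothelial nuclei, of which 10 were left in replicate 1. Over the 6666 genes 614 were higher and 470 lower, with a median of 0.096. Of the mesothelial list 5 of 5 counted genes fell, with a median of -3.89. UMIs of Upk3b and Msln were used to choose both groups, so these falls follow in part from the choice and are a description. Muc16 had 1345 and 1024 CPM in mesothelial nuclei (log2 fold change -4.97 ± 0.34 SE, edgeR adjusted p = 1.08e-35) and Gpm6a 1035 and 1036 CPM (log2 fold change -4.44 ± 0.33 SE, edgeR adjusted p = 5.75e-31). The binding protein genes Igfbp5 and Igfbp6 had 4459.9 and 2716 CPM (log2 fold change -2.97 ± 0.25 SE, edgeR adjusted p = 7.20e-25) and 3238 and 1958 CPM (log2 fold change -3.01 ± 0.26 SE, edgeR adjusted p = 3.19e-24) there. Complement genes gave 0 higher and 4 lower of 9, with a median of -0.62. C3 stood at 886 and 637 CPM in committed and 3485 and 2545 CPM in mesothelial nuclei (log2 fold change -2.11 ± 0.24 SE, edgeR adjusted p = 8.78e-15). Gas6, the ligand of Axl, had 91.2 and 279.5 CPM in committed and 1541 and 1518 CPM in mesothelial nuclei (log2 fold change -2.97 ± 0.27 SE, edgeR adjusted p = 5.32e-22). The gap was wider in replicate 1. In replicate 2 the second sub-cluster held 113 of 208 committed UMIs of Gas6, and without it Gas6 stood at 156 CPM there.

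On the higher side, Ebf1 stood at 2971 and 3005 CPM in committed and 117 and 261 CPM in mesothelial nuclei (log2 fold change 3.84 ± 0.27 SE, edgeR adjusted p = 2.05e-35), and Ebf2 at 808 and 1227 CPM in committed and 27.1 and 87.4 CPM in mesothelial nuclei (log2 fold change 3.91 ± 0.29 SE, edgeR adjusted p = 1.61e-32). Penk had 3.01 and 7.65 CPM in mesothelial nuclei (log2 fold change 5.19 ± 0.40 SE, edgeR adjusted p = 6.85e-30), Pdgfra 6.02 and 23.4 CPM (log2 fold change 4.62 ± 0.32 SE, edgeR adjusted p = 1.11e-35) and Fgf10 12.04 and 40.3 CPM (log2 fold change 3.22 ± 0.32 SE, edgeR adjusted p = 1.87e-19). For Penk, Pdgfra and Fgf10 the ratio of CPM in committed to mesothelial nuclei was larger in replicate 1 than in replicate 2. Of the progenitor list 5 of 14 rose and 5 fell, with a median of -0.083, and of the committed list 7 of 13 rose and 0 fell, with a median of 0.94. The 3 comparisons share the committed nuclei, so their counts are set side by side and not crossed. The genes with a fold change against mesothelial nuclei were called under all 12 alternatives.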

How the data were processed

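Nuclei of gonadal fat from 2 young female mice were sequenced, 1 library per mouse, and libraries of other depots and ages were not read. The paper states a Singleron GEXSCOPE capture, whereas the records of both libraries give a 10x capture and adipocytes as the cell type. The authors made each deposited matrix of UMI counts by aligning reads to GRCm39 with CeleScope, and it holds whole numbers for 56980 genes in called nuclei, with no normalization. The annotation and the CeleScope version are not given in the sources used here.

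Nuclei were kept when they had more than 500 genes and 1000 UMIs with less than 15% of UMIs mitochondrial. FAP nuclei and members followed the rule given with the results. Of the remaining nuclei, adipocyte nuclei held at least 10 UMIs of the 8 adipocyte genes, mesothelial nuclei at least 3 UMIs of Upk3b, Msln, Lrrn4 and Krt19, and endothelial (Ptprb, Pecam1, Cdh5, Flt1), immune (Cybb, Ptprc, Mrc1, Adgre1) and mural nuclei (Myh11, Notch3, Rgs5, Acta2) at least 4 UMIs of their genes. A nucleus that met 2 of these conditions was left out. The members and the gene lists were chosen with earlier results of these data known. Alternatives added after the data had been seen are named in the closing section. Scrublet in scanpy called 1 nucleus per library a doublet, so no nuclei were removed, and an alternative left out the 6% with the highest scores.

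UMIs were summed per library and nucleus group where each library had at least 20 nuclei (at least 10 committed nuclei where members were taken by 1 condition). Mural nuclei, 12 in replicate 1, were left out of the fit, which had 6 groups and 5 residual degrees of freedom. The sums were tested in edgeR 4.0.16 with TMM, filterByExpr, the quasi-likelihood F test and Benjamini-Hochberg adjustment over 12445 genes, with calls at an adjusted p under 0.05. The library was a block, since both sides of each comparison come from the same animal: over 15 pairs of groups the residuals of the same animal correlated with a median of 0.211 (0.107 to 0.420, 12484 genes). The spread is that of 6 groups in 2 mice and says little about variation between mice. The 39 genes of the rule and of the conditions for other types stayed in library sizes and were left out of calls and adjustment. Fold changes include TMM and differ from ratios of CPM. DESeq2 1.42.0 served as an alternative.

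Shares carry exact Clopper-Pearson 95% intervals, which hold counting error only. For shares of nuclei with a UMI, each nucleus was thinned to 1000 UMIs (seed of 1 plus the replicate number). Committed nuclei were grouped by Leiden clustering (resolution 0.3, 15 neighbours, 16 components, 1000 variable genes without those of the rule). Named genes are those of 23 lists with 384 genes, and the 10 with the largest fold change in each direction against other FAP nuclei among those called with at least 50 UMIs and the same direction in both libraries. Others are said to have been chosen after their values were seen. Promoter sequences are from RefSeq on GRCm38.p6. Work ran under R 4.3.3 and Python 3.11.15 with scanpy 1.11.5, numpy 2.4.6, anndata 0.12.19, scipy 1.17.1, leidenalg 0.10.2, pandas 2.3.3, igraph 0.11.9, scikit-learn 1.9.0 and matplotlib 3.10.9.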

Additional observations from a re-analysis of the deposited data

How the results depend on the processing

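Fold changes of named genes here include those of Adamts16, Col4a5, Bmp6, Plxna4, Adap2, Cdh19, Septin4 and Itga1. These 100 fold changes were recomputed under the alternatives, giving 1212 values. Of these, 1020 had the same direction and the same side of the threshold, 189 had the same direction and were no longer called, 0 were newly called and 3 reversed. The fits without nuclei rich in mural or mesothelial UMIs and without shared barcodes were chosen after seeing the data. The cause of each change below was not tested.

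Without the library as a block, 66 of the values were no longer called. That fit, which ignores that both sides come from the same mice, called 1 gene higher and 22 lower against other FAP nuclei, 1145 lower against adipocyte nuclei, and 310 higher and 342 lower against mesothelial nuclei.

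With DESeq2 62 genes were called higher and 123 lower against other FAP nuclei and 1302 lower against adipocyte nuclei, and 22 gene values were no longer called. With no filter on low counts 60 were called higher against other FAP nuclei. Under the 5% mitochondrial limit, which leaves fewer nuclei and nucleus groups, 33 were higher and 106 lower, and the fit against mesothelial nuclei could not be fitted. In FAP nuclei of middle depth 64 were higher. With members taken by C 1417 were higher against adipocyte nuclei, and the log2 fold change of Slc35f1 against other FAP nuclei was -0.31. Without FAP nuclei rich in mesothelial UMIs it was 0.079 for Plxna4 and 0.54 for Gpm6a, a gene of that list.

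The share of FAP nuclei that were committed was 32.2% in replicate 1 and 48% in replicate 2 by the rule on thinned nuclei, 8.84% and 10.2% by the C condition alone, and 39.7% in replicate 2 without nuclei rich in mesothelial UMIs. Of filtered nuclei it was 2.65% in replicate 2 by thinned nuclei, 0.565% and 0.949% by C alone, 2.01% in replicate 1 under the 5% limit, 2.56% in replicate 2 with under 4 adipocyte UMIs, and 0.812% and 1.70% with at least 10 UMIs of the FAP genes. Of 64 counts of calls under the alternatives 51 were within 1.5 times the reported count, and of 28 shares 16 were within the reported interval.

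Leaving out a library leaves no residual degrees of freedom among samples, so 197 such values were taken with no test, and all had the direction of the reported fold change. Values of replicate 1 rest on less material, since 40 committed nuclei held 76737 UMIs there, against 362 nuclei with 744093 UMIs in replicate 2.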
